A study of Mus musculus with 6 samples.

Results

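The SMAD and ID genes were followed in endothelial cells, which line blood and lymph vessels, sorted by flow cytometry from mouse lung. The 10 genes are Smad1 to Smad7 and Id1 to Id3, taken by symbol from a table of 24520 gene identifiers, and 1 identifier was found for each symbol. They were chosen by name, with earlier results of these data known. All 10 were among the 12748 genes whose mean reached 1 TPM (an abundance scaled for transcript length and for the total of the library) and that were tested. The libraries came from wild-type mice (labelled wt) aged 18 months (labelled Aged, 3 libraries) and 8 months (labelled mAdu, 3 libraries), with no other treatment named in the labels, in a study of the DNA methyltransferase DNMT3A and endothelial enhancers. The sources used here do not give the strain, the sex, the sort markers or any pooling of animals. TPM carry no read depth, and the libraries were alike in genes above 0, from 17325 to 17513, and in the correlation of log2 values, from 0.966 to 0.982. The labels do not say whether an age's 3 libraries stem from different animals. The p-values therefore reflect library-to-library spread, part of which may be technical.

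SMAD proteins carry signals of the BMP and TGF-beta family from receptors at the cell surface to the nucleus. Ligand-bound receptors phosphorylate receptor-regulated SMADs, which join the common partner SMAD4 and bind DNA, and the inhibitory SMADs, themselves induced by the pathway, close a negative feedback loop. In endothelium, circulating BMP9 and BMP10 act through the receptor ALK1 (gene Acvrl1) with its partners BMPR2 and endoglin, and SMAD1 and SMAD5 then switch on Id1, Id2 and Id3. The ID proteins have a helix-loop-helix fold without a DNA-binding region and hold their partners, the basic helix-loop-helix (bHLH) factors, away from DNA, and their transcripts are widely read as a report of BMP activity.

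The family members are alike in sequence, which bears on how well reads tell them apart. The most alike stretch of 90 coding bases, placed in the same reading frame without gaps, is shown for the 3 ID genes, with capitals for the 56 bases (62.2%) that are the same in all 3. In Id1 it lies on the plus strand at chr2:152736518-152736607 (GRCm38, the assembly called mm10), in Id2 on the minus strand at chr12:25095813-25095902 and in Id3 on the plus strand at chr4:136144002-136144091, each time inside a single coding exon.
Id1: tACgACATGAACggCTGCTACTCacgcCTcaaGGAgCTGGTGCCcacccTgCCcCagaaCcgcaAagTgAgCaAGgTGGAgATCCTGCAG
Id2: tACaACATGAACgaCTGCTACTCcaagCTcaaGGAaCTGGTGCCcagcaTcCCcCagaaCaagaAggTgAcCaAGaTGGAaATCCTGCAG
Id3: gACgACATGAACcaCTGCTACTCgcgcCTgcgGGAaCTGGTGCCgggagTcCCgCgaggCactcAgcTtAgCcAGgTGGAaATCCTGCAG
The most alike stretch of Smad1 and Smad5, the SMADs of the BMP branch, is shown in the same way and has 78 identical bases (86.7%). It lies on the minus strand at chr8:79343780-79343869 in Smad1 and on the plus strand at chr13:56735841-56735930 in Smad5, inside a single coding exon of each.
Smad1: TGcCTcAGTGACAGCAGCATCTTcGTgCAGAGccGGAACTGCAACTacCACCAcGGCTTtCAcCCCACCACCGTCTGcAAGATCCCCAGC
Smad5: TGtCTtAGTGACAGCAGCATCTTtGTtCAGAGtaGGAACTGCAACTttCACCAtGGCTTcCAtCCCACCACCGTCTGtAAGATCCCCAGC
The longest identical run anywhere in the annotated coding sequences was 11 bases between Id1 and Id2, 11 between Id1 and Id3, 15 between Id2 and Id3 and 17 between Smad1 and Smad5. These runs are shorter than the 31-base words in which transcripts were compared here. Of the 31-base words in each member's annotated transcripts, between 0.0% and 1.60% also occurred in transcripts of another gene, with the highest share in Id2, through Gm6175. No other annotated gene shared exon bases with a member, apart from Gm27301, a small RNA gene that has 100 bases in common with Smad5 on the same strand.

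A stretch of DNA before the RefSeq start is shown for Id2 and for Smad6, the feedback inhibitor of the BMP branch. Id2 is the ID gene whose window reaches outside annotated exons. Its stretch lies inside the gene as GENCODE places it (chromosome 12, 25093799 to 25097140), not upstream of that gene's first base. The sequences are from RefSeq on GRCm38.p6, and windows of 6 of the 10 members were searched. Id1 had no entry in the promoter set used. Smad2, Smad4 and Smad7 were left out of the search, so their absence does not mean that they lack a RefSeq promoter. The 2 printed sequences are read on the gene's strand from 250 bases before the start and stop ahead of the first annotated exon base. Id2 is at chr12:25096254-25096342 and Smad6 at chr9:64022060-64022309, both on the minus strand.
Id2: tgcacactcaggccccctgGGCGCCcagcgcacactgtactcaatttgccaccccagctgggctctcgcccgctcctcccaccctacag
Smad6: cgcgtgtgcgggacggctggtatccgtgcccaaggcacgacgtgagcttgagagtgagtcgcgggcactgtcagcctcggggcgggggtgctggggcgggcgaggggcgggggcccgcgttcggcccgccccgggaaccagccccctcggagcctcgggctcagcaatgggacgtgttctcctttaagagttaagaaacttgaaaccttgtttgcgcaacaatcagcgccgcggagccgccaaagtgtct
Capitals mark matches to GGCGCC, the core of a BMP-responsive SMAD element. The SMAD-binding element CAGAC, whose reverse complement is GTCTG, was searched too, both motifs on both strands. The Id2 window held 1 match to GGCGCC and 0 to CAGAC, and the window of Smad6 held no match to either. The match in Id2 starts 231 bases before the RefSeq start, inside the gene as GENCODE places it. Of 32851 RefSeq promoters, 9.59% held GGCGCC and 42.2% held CAGAC in the 250 bases before the start. The Id3 window held 2 matches to CAGAC and 0 to GGCGCC, and the windows of Smad1 and Smad3 held 0 of either. All 250 bases of the Id3 window, and 90 of the Smad1 window, are annotated exon bases of the gene itself. The 2 matches of Id3 are thus not upstream of its annotated gene. Smad5 has 3 windows, of which 1 held a match to GGCGCC and another a match to CAGAC, with 42 and 159 exon bases of Smad5.

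The levels of the 10 transcripts spanned from Id3, at a mean of 2191 TPM over the 6 libraries, to Smad3, at 2.19 TPM. Id3 lay at or above 99.7% of the tested genes, and Id1 with 641.6 TPM at or above 98.6%. Id2 averaged 225.1 TPM. The SMADs lay far lower, in the order Smad6, Smad7, Smad4, Smad1, Smad5, Smad2 and Smad3. In every library Id3 was above Id1, Id1 above Id2, Id2 above Smad6, Smad7 above Smad4 and Smad2 above Smad3, with ranges over the 6 libraries that did not overlap. Smad6 and Smad7 could not be ordered, since Smad6 was the higher in 3 of 6 libraries, nor could Smad4 and Smad1, where Smad4 was the higher in 4 of 6. Smad1 was above Smad5, and Smad5 above Smad2, in 6 of 6 libraries, although their ranges overlapped.

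None of the 10 genes passed limma's moderated test between 18 and 8 months at an adjusted p of 0.05, where 3 of the 12748 genes tested did (0.0235%, with 0.00784% higher and 0.0157% lower), and the smallest adjusted p among the 10 was 0.24, for Id1. At an unadjusted p under 0.05 there were 2 lower members, Id1 and Smad3, and 0 higher ones, beside 9.99% of all tested genes that were lower and 3.45% that were higher on that rule. This tally depended on the setting. There were 0 lower members without the second mAdu library, beside 800 of 12713 genes, and 4 without the third, beside 1000 of 12718. The replicate block gave 1, beside 1023 of 12748. That block after correcting for GC and length gave 0, beside 707 of 12748. No filter gave 3, beside 1534 of 19206, and protein-coding genes alone gave 3, beside 1302 of 11682. Smad1 was the 1 higher member under the 4 other scalings. The lower members were 2 after quantile normalization, 1 with median-of-ratios scaling, 1 after correcting for GC and length and 0 with scaling to endothelial markers. In that order 751, 756, 772 and 1439 of the 12748 genes were higher, and 979, 881, 770 and 463 lower. The ages did not overlap in Id1 and Smad6, which were lower in Aged cells, and in Smad1, which was higher, beside 18.7% of all tested genes that did not overlap, 14.2% lower and 4.48% higher. In sign, 8 members were lower and 2 higher, and of all tested genes 8445 were lower and 4303 higher. The median log2 difference, 18 minus 8 months on the log2(TPM + 1) scale, was -0.26 for the 3 ID genes and -0.063 for the 7 SMAD genes, beside -0.079 for all genes tested. The sign of the SMAD median turned under 4 ways of scaling. It was 0.030 with median-of-ratios scaling, 0.035 after quantile normalization, 0.0024 after correcting for GC and length and 0.12 with scaling to endothelial markers. The median of all genes moved as well, to 0.0089, -0.0033, -0.00093 and 0.096 in the same order. The SMAD median lay above that of all genes in the main fit and under each of these scalings. The ID median lay between -0.23 and -0.067 under these settings. It also rested on single libraries, at -0.065 without the second mAdu library and -0.46 without the third.

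**Figure D1:**
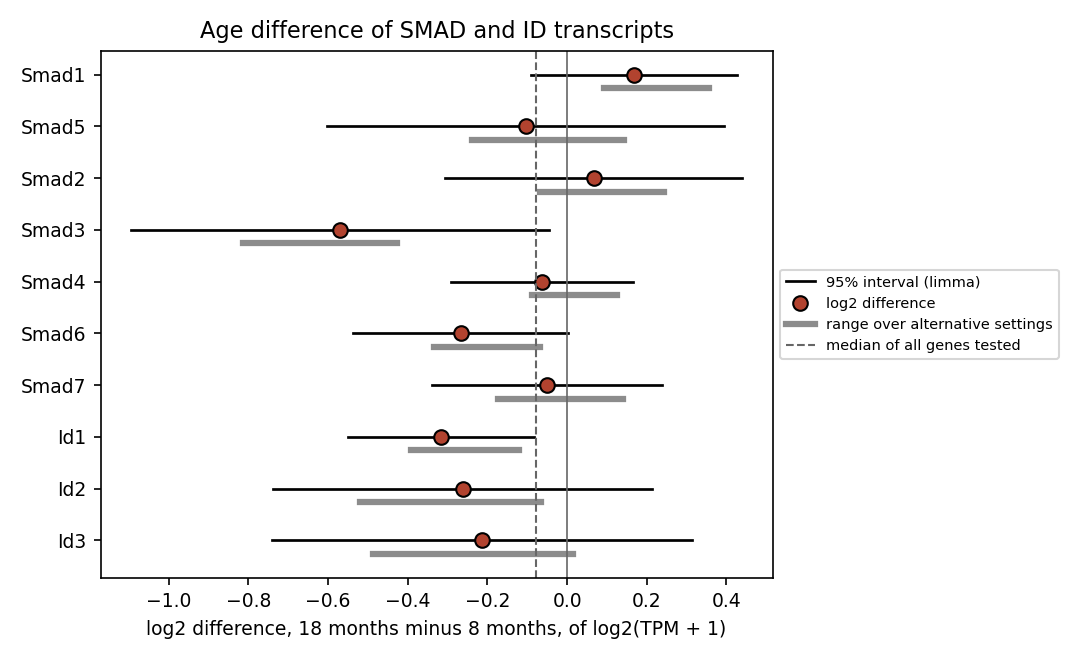
Points give the log2 difference, 18 minus 8 months, of log2(TPM + 1) for each gene, black lines its 95% interval from limma over 3 libraries per age, and grey bars the lowest and highest value over the alternative settings. The dashed line is the median of all tested genes, -0.079, and the intervals of Id1 and Smad3 lie below 0 before adjustment for the number of genes.

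Smad1 and Smad5, together with Smad9, encode the receptor-regulated SMADs of the BMP branch. Smad1 (chromosome 8, 79338395 to 79399518) lay at 23.8, 24.0 and 23.6 TPM in the Aged libraries, against 18.9, 22.2 and 22.4 TPM in the mAdu libraries. Every Aged library was above every mAdu library, and the Aged libraries lay within 1 TPM of each other. The log2 difference was 0.17 with an SE of 0.11 and a 95% interval from -0.090 to 0.43 (limma adjusted p = 0.57). It was 0.093 without the first mAdu library, 0.26 with median-of-ratios scaling and after quantile normalization, 0.25 after correcting for GC and length and 0.36 with scaling to endothelial markers, with unadjusted limma p-values of 0.037, 0.037, 0.037 and 0.013 under those 4 scalings. Smad5 (chromosome 13, 56703010 to 56742377) lay at 19.9, 11.7 and 20.6 TPM in Aged cells and at 16.5, 20.8 and 17.7 TPM in mAdu cells. The ages overlapped, and the second Aged library stood below the other 5. The log2 difference of Smad5 was -0.10 with an interval from -0.60 to 0.39 (limma adjusted p = 0.88), and 0.14 without that library. The third gene of this branch, Smad9, averaged 0.884 ± 0.365 TPM in Aged cells and 1.11 ± 0.120 TPM in mAdu cells (SD, n = 3 each), below the level needed for a test.

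Smad2 and Smad3 encode the receptor-regulated SMADs that TGF-beta and activin receptors use. Smad3 (chromosome 9, 63646767 to 63757994) had 2.11, 1.23 and 1.35 TPM in Aged cells, against 2.08, 3.59 and 2.77 TPM in mAdu cells. The ages overlapped by a narrow margin, since the first library of each age stood at nearly the same level. The mean was 1.56 ± 0.479 TPM in Aged cells and 2.81 ± 0.754 TPM in mAdu cells (SD, n = 3 each), a ratio of 0.556. The log2 difference of -0.57, with an interval from -1.09 to -0.045, was the lowest of the 10 members, and the limma adjusted p was 0.34. On the log2(TPM + 0.1) scale, which compresses low values less, it was -0.81, so the choice of pseudocount weighs on this gene. Smad2 (chromosome 18, 76241580 to 76310963), several times more abundant, lay at 12.5, 8.75 and 9.73 TPM in Aged cells and at 9.86, 10.5 and 8.90 TPM in mAdu cells. Its ages overlapped throughout, with a log2 difference of 0.066 and an interval from -0.31 to 0.44 (limma adjusted p = 0.91). That difference was -0.069 without the first Aged library and 0.17 without the second.

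Smad4 (chromosome 18, 73639009 to 73703780), the partner that both branches share, varied least of the 10 members. It lay at 24.1, 22.6 and 23.0 TPM in Aged cells and at 24.4, 23.8 and 24.7 TPM in mAdu cells, with a highest value 1.09 times the lowest. Its spread within an age was at or above that of 0.455% of the tested genes. The log2 difference was -0.063 with an interval from -0.29 to 0.17 (limma adjusted p = 0.84).

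Smad6 and Smad7 encode the inhibitory SMADs. SMAD6 acts mainly against the BMP branch and SMAD7 against both. Smad6 (chromosome 9, 63953076 to 64022059) lay at 44.3, 38.8 and 43.7 TPM in Aged cells, against 57.8, 49.5 and 46.3 TPM in mAdu cells. Every Aged library was below every mAdu library, with the second Aged library lowest and the first mAdu library highest. The log2 difference was -0.27 with an SE of 0.12 and an interval from -0.54 to 0.0033 (limma adjusted p = 0.38). Corrected for GC and length it was -0.068, and scaled to endothelial markers -0.075. Smad7 (chromosome 18, 75367529 to 75395935) lay at 47.2, 45.2 and 42.5 TPM in Aged cells and at 50.2, 51.1 and 39.4 TPM in mAdu cells. Its ages overlapped, with both the highest and the lowest value in mAdu cells, and its log2 difference was -0.051 with an interval from -0.34 to 0.24 (limma adjusted p = 0.91). The ratio of Smad6 to Smad7, chosen after the values were seen and given without a test, was 0.942 ± 0.0848 in Aged cells and 1.10 ± 0.113 in mAdu cells (SD, n = 3 each).

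**Figure D2:**
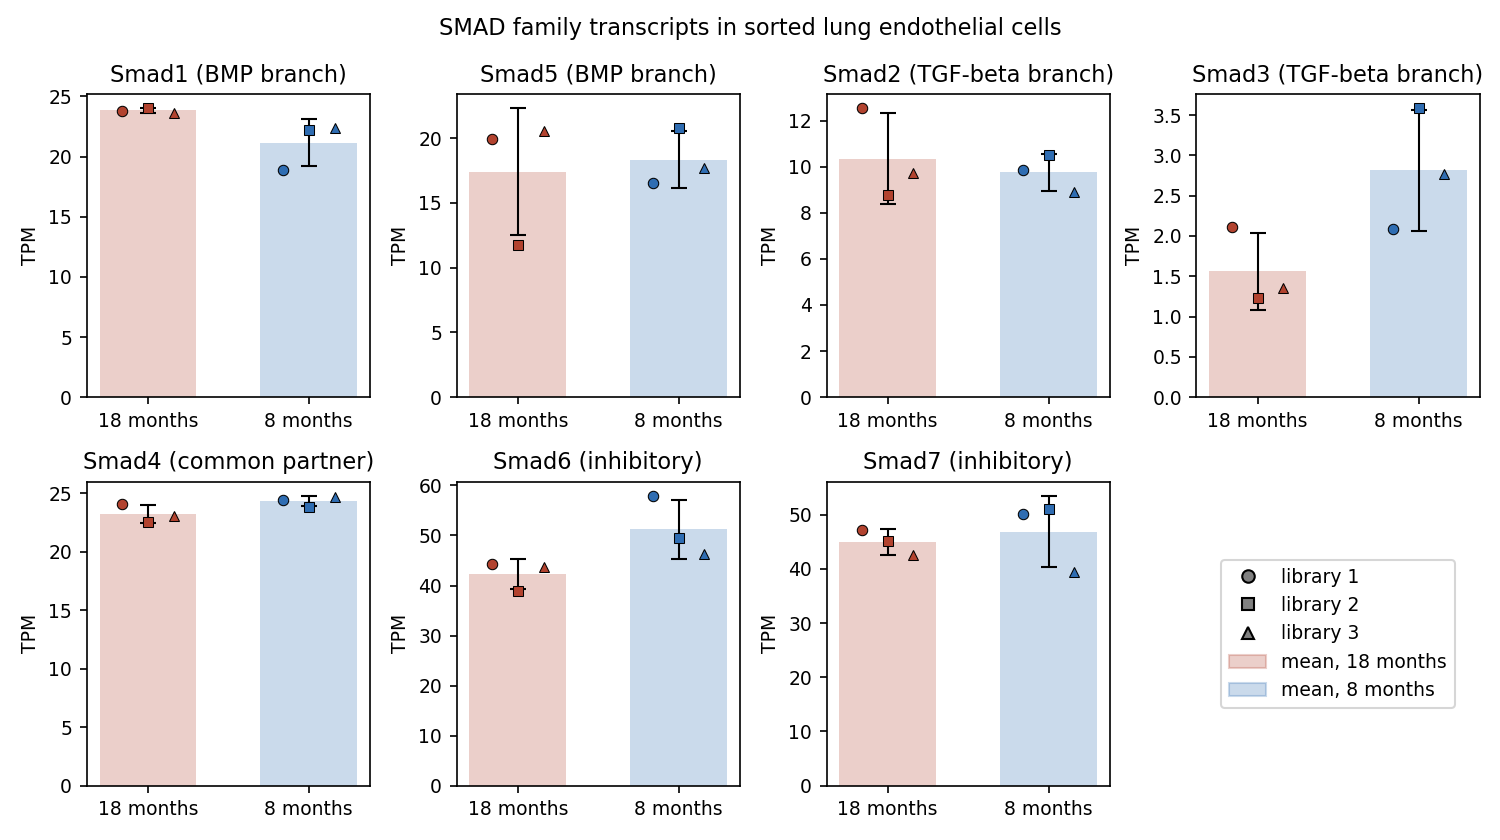
Bars and error bars give the mean and SD of TPM per age (n = 3) for the 7 SMAD genes, on axes that start at 0, and the symbols are the single libraries. Smad1 and Smad6 are the panels in which the ages do not overlap, Smad4 has the tightest points, and the second Aged library is the low point of Smad5 at 11.7 TPM.

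Id1 (chromosome 2, 152736251 to 152737410), the ID gene most often used to read BMP signalling in endothelium, lay at 597.9, 559.1 and 555.3 TPM in Aged cells, against 749.5, 748.5 and 639.3 TPM in mAdu cells. Every Aged library was below every mAdu library, and the gap was bounded by the first Aged and the third mAdu library. The means were 570.8 ± 23.6 TPM in Aged cells and 712.4 ± 63.3 TPM in mAdu cells (SD, n = 3 each), a ratio of 0.801. The log2 difference was -0.32 with an SE of 0.10 and an interval from -0.55 to -0.082. The unadjusted p was 0.014 and the limma adjusted p 0.24. Id1 was below 0 in each of the 21 alternative settings, between -0.39 and -0.12, with an adjusted p between 0.097 and 0.65.

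Id2 (chromosome 12, 25093799 to 25097140), which besides vessels is known from lymphoid cell development, lay at 217.6, 207.8 and 179.5 TPM in Aged cells and at 253.7, 317.6 and 174.2 TPM in mAdu cells. Id3 (chromosome 4, 136143497 to 136145755), which acts together with Id1 in vessel growth, lay at 2157, 2057 and 1766 TPM in Aged cells and at 2370, 3164 and 1631 TPM in mAdu cells. In both genes the ages overlapped, the third mAdu library was the lowest of the 6 and the second mAdu library the highest. The log2 difference was -0.26 with an interval from -0.74 to 0.21 for Id2 (limma adjusted p = 0.64) and -0.21 with an interval from -0.74 to 0.31 for Id3 (limma adjusted p = 0.75). These values rest on single libraries. Without the second mAdu library they were -0.065 for Id2 and 0.015 for Id3, and without the third mAdu library -0.50 for Id2 and -0.46 for Id3. Id4, the remaining ID gene, averaged 0.338 ± 0.296 TPM in Aged cells and 0.222 ± 0.0959 TPM in mAdu cells (SD, n = 3 each) and was too low to test.

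**Figure D3:**
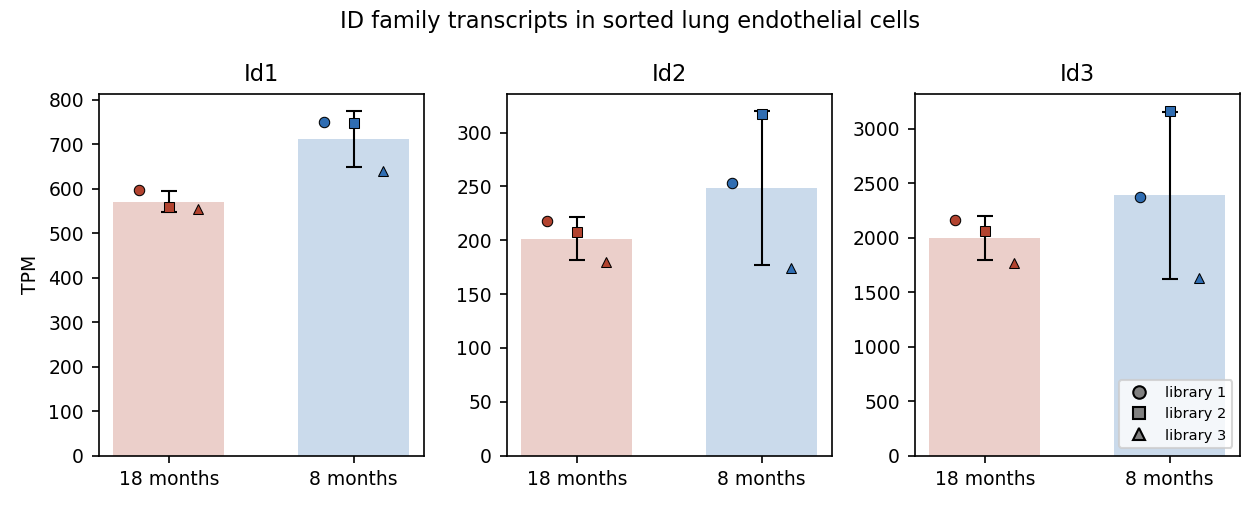
Bars and error bars give the mean and SD of TPM per age (n = 3) for Id1, Id2 and Id3, on axes that start at 0, and the symbols are the single libraries. The Aged libraries of Id1, up to 597.9 TPM, all lie below the mAdu libraries, from 639.3 TPM, and in Id2 and Id3 the second and the third of the mAdu libraries span the whole range.

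Id3 and Id2 lay in nearly the same proportion in every library. The ratio of Id3 to Id2 lay at 9.91, 9.90 and 9.84 in Aged cells and at 9.34, 9.96 and 9.37 in mAdu cells, while Id3 itself varied 1.94-fold and Id2 1.82-fold. Id1 did not follow them as closely, and the ratio of Id3 to Id1 ran from 2.55 in the third mAdu library to 4.23 in the second mAdu library. Id3 made up 72.0% ± 1.21 of the summed ID transcripts in Aged cells and 70.6% ± 4.04 in mAdu cells (SD, n = 3 each), and Id2 between 7.12% and 7.52% in all 6 libraries. These ratios were chosen after the values were seen and are given without a test. The summed level of Id1, Id2 and Id3 was 2766 ± 241.1 TPM in Aged cells and 3349 ± 892.6 TPM in mAdu cells (SD, n = 3 each). The difference of -583.3 TPM was smaller than the spread of the mAdu libraries (exact permutation test, 2-sided, p = 0.40, where 3 against 3 libraries cannot give less than 0.10). It was -143.1 TPM without the second mAdu library and -1035 TPM without the third.

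Among the receptor-regulated SMADs the BMP branch held most of the transcripts. Smad1, Smad5 and Smad9 together made up 75.1%, 78.8% and 80.3% of the summed TPM of Smad1, Smad2, Smad3, Smad5 and Smad9 in Aged cells and 75.4%, 75.8% and 77.9% in mAdu cells. The ages overlapped, with means of 78.1% ± 2.66 in Aged cells and 76.4% ± 1.32 in mAdu cells (SD, n = 3 each, exact permutation test, 2-sided, p = 0.40, smallest possible 0.10). The second Aged library stood apart in makeup, with Smad1 at 51.1% and Smad5 at 25.0% of the pool. The other 5 libraries had Smad1 between 38.0% and 42.5% and Smad5 between 33.5% and 36.6%. Per library, the inhibitory Smad6 and Smad7 summed to 1.55, 1.79 and 1.54 times the receptor-regulated SMADs in Aged cells and to 2.23, 1.73 and 1.63 times in mAdu cells. The difference of means was -0.23 (exact permutation test, 2-sided, p = 0.30, smallest possible 0.10) and -0.051 without the first mAdu library.

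**Figure D4:**
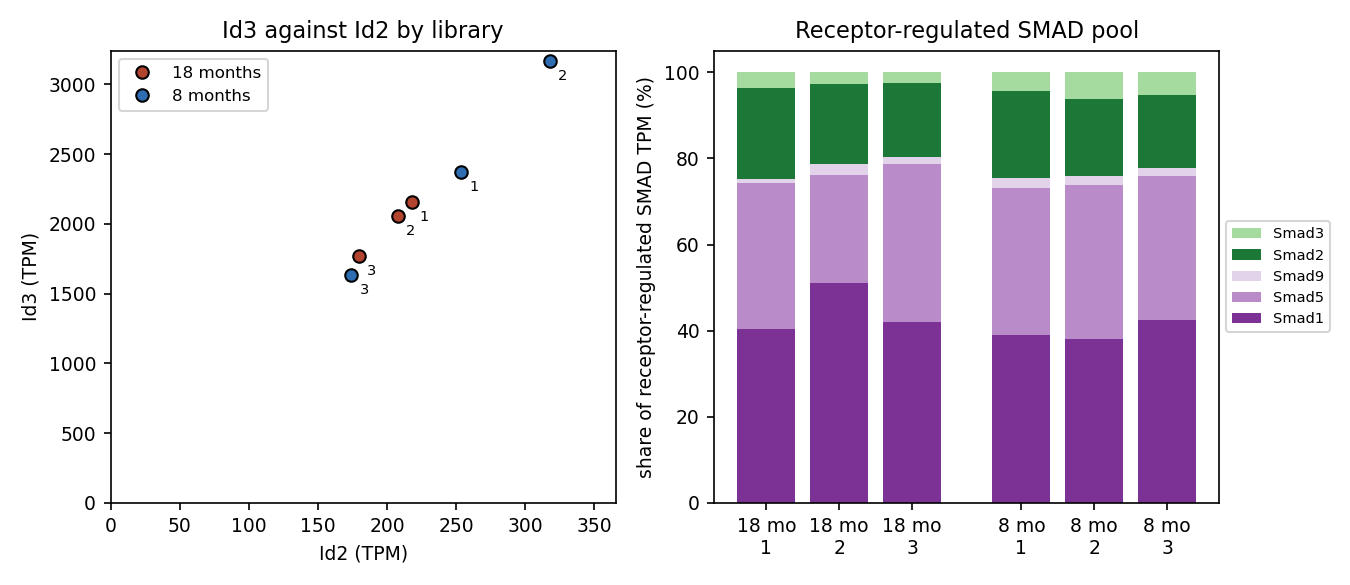
Left, Id3 against Id2 in TPM, with a point for each library and its number, where the 6 points fall along a line at ratios of 9.34 to 9.96. Right, the share in percent of each receptor-regulated SMAD in their summed TPM, with Aged libraries on the left, where Smad1 and Smad5 fill most of each bar.

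The other genes of the pathway were taken from lists of ligands, receptors, regulators and targets, and 0 of their members passed the adjusted test. Of the 13 receptor genes, 11 were tested, 10 lower and 1 higher. Their median log2 difference was -0.23, and -0.035 with scaling to endothelial markers. Taken relative to the median of all genes it was -0.15 without that scaling and -0.13 with it. There were 4 of 11 lower without overlap, beside 14.2% of all tested genes. Acvrl1, the gene of ALK1, lay at 1236, 1082 and 1245 TPM in Aged cells, against 1447, 1521 and 1474 TPM in mAdu cells. Eng, the gene of the co-receptor endoglin, lay at 454.3, 307.1 and 350.4 TPM in Aged cells, against 561.5, 732.8 and 615.4 TPM in mAdu cells. In both genes every Aged library was below every mAdu library. Their log2 differences were -0.32 for Acvrl1 (limma adjusted p = 0.23) and -0.79 for Eng (limma adjusted p = 0.14). Bmpr2, the type II receptor, averaged 192.2 ± 20.6 TPM in Aged cells and 208.9 ± 3.84 TPM in mAdu cells (SD, n = 3 each). The ratio of Id1 to Acvrl1 ran from 0.446 to 0.517 in Aged cells and from 0.434 to 0.518 in mAdu cells, so both ages covered nearly the same range. That ratio was chosen after the values were seen.

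Among BMP ligands and antagonists 4 of 14 genes were tested, 1 higher and 3 lower. Their median was -0.23, or -0.15 with median-of-ratios scaling and -0.075 with scaling to endothelial markers. Taken relative to the median of all genes it was -0.15, -0.16 and -0.17 in the same order. Gdf2 and Bmp10, which encode BMP9 and BMP10 and are known as products of liver and heart, were listed at 0 in all libraries. Bmp6, a ligand that endothelial cells make themselves, lay at 119.7, 125.3 and 122.9 TPM in Aged cells, against 76.2, 113.0 and 84.2 TPM in mAdu cells, with no overlap and a log2 difference of 0.44 (limma adjusted p = 0.25). Fstl1, a secreted protein known to bind BMP4, averaged 49.2 ± 5.95 TPM in Aged cells and 85.2 ± 13.7 TPM in mAdu cells (SD, n = 3 each). It was lower without overlap, with a log2 difference of -0.77 (limma adjusted p = 0.13). Thus 1 tested gene of this list was higher and 1 lower without overlap, beside 4.48% and 14.2% of all tested genes. Twsg1, an extracellular BMP modulator, averaged 6.78 ± 1.80 TPM in Aged cells and 7.62 ± 0.556 TPM in mAdu cells (SD, n = 3 each).

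Among the TGF-beta and activin ligands and their latent binding proteins 8 of 10 genes were tested, 3 higher and 5 lower. Their median was -0.29, and -0.024 after correcting for GC and length. Taken relative to the median of all genes it was -0.21 before and -0.023 after that correction. Ltbp1, which stores latent TGF-beta in the matrix, lay at 17.4, 17.5 and 16.2 TPM in Aged cells, against 10.5, 11.6 and 10.0 TPM in mAdu cells. Its ages did not overlap and its log2 difference was 0.63 (limma adjusted p = 0.13). In this list 1 tested gene was higher and 2 were lower without overlap, beside 4.48% and 14.2% of all tested genes. Lrrc32, which holds latent TGF-beta at the cell surface, averaged 78.9 ± 16.1 TPM in Aged cells and 64.9 ± 9.82 TPM in mAdu cells (SD, n = 3 each), with overlap. Ltbp4 averaged 20.2 ± 3.81 TPM in Aged cells and 28.3 ± 9.90 TPM in mAdu cells (SD, n = 3 each), also with overlap.

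The regulators of SMAD turnover and activity lay close together at both ages. Of 14 genes 13 were tested, 4 higher and 9 lower. Their median was -0.070, with a range from -0.19 to 0.22 and 0 genes without overlap. That median was above 0 under the 4 other scalings, up to 0.12 with scaling to endothelial markers. With that last scaling the median of all genes was 0.096. Usp15, a deubiquitinase that acts on receptor-regulated SMADs, averaged 101.9 ± 9.22 TPM in Aged cells and 101.3 ± 6.82 TPM in mAdu cells (SD, n = 3 each). The ubiquitin ligase gene Smurf2 averaged 63.2 ± 6.95 TPM in Aged cells and 65.0 ± 7.72 TPM in mAdu cells, and the corepressor gene Skil 59.6 ± 8.50 TPM in Aged cells and 62.6 ± 8.81 TPM in mAdu cells.

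Of the 9 endothelial BMP target genes outside the ID family 8 were tested, 6 higher and 2 lower. Their median was 0.22 and ran from 0.26 to 0.41 under the 4 other scalings. Taken relative to the median of all genes it was 0.30, and from 0.26 to 0.32 under those scalings. Of the 8, 1 was higher without overlap, beside 4.48% of all tested genes. Tmem100, which BMP9 and BMP10 induce through ALK1, averaged 4623 ± 93.8 TPM in Aged cells and 4222 ± 540.2 TPM in mAdu cells (SD, n = 3 each), a log2 difference of 0.14 with an interval from -0.16 to 0.44. Gja4, the gene of connexin 37, lay at 495.6, 658.1 and 521.6 TPM in Aged cells, against 418.6, 403.4 and 277.5 TPM in mAdu cells, without overlap and with a log2 difference of 0.62 (limma adjusted p = 0.21). Efnb2, the arterial ephrin, averaged 127.5 ± 9.97 TPM in Aged cells and 125.5 ± 11.4 TPM in mAdu cells. Several of these genes, such as Hey1, Hey2, Hes1 and Efnb2, are also targets of Notch signalling. Whether the ID genes and this list differ from each other was not tested.

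Of the 9 TGF-beta target genes, all tested, 2 were higher and 7 lower. Their median was -0.19, and -0.018 with scaling to endothelial markers. Taken relative to the median of all genes it was -0.11 both without and with that scaling. Skil, already given, is the most abundant of these targets, and 2 of the 9 were lower without overlap, beside 14.2% of all tested genes. These were Ccn2, a matrix-associated protein gene also driven by YAP, at 25.3 ± 10.6 TPM in Aged cells and 74.2 ± 34.1 TPM in mAdu cells (SD, n = 3 each, limma adjusted p = 0.19), and the cell cycle inhibitor gene Cdkn2b at 24.6 ± 3.64 TPM in Aged cells and 47.0 ± 11.5 TPM in mAdu cells (SD, n = 3 each, limma adjusted p = 0.16). Of the bHLH partners that ID proteins hold, 5 of 6 genes were tested, 2 higher and 3 lower. Their median was -0.12, or 0.066 after correcting for GC and length and 0.042 with scaling to endothelial markers. Taken relative to the median of all genes it was -0.046, 0.067 and -0.054 in the same order. Tcf4, the most abundant, averaged 171.2 ± 16.8 TPM in Aged cells and 170.3 ± 14.0 TPM in mAdu cells, and Tcf12 22.2 ± 1.67 TPM in Aged cells and 22.0 ± 2.03 TPM in mAdu cells (SD, n = 3 each). Lyl1, a blood and endothelial bHLH factor, averaged 7.76 ± 2.90 TPM in Aged cells and 12.8 ± 4.90 TPM in mAdu cells, with overlap.

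**Figure D5:**
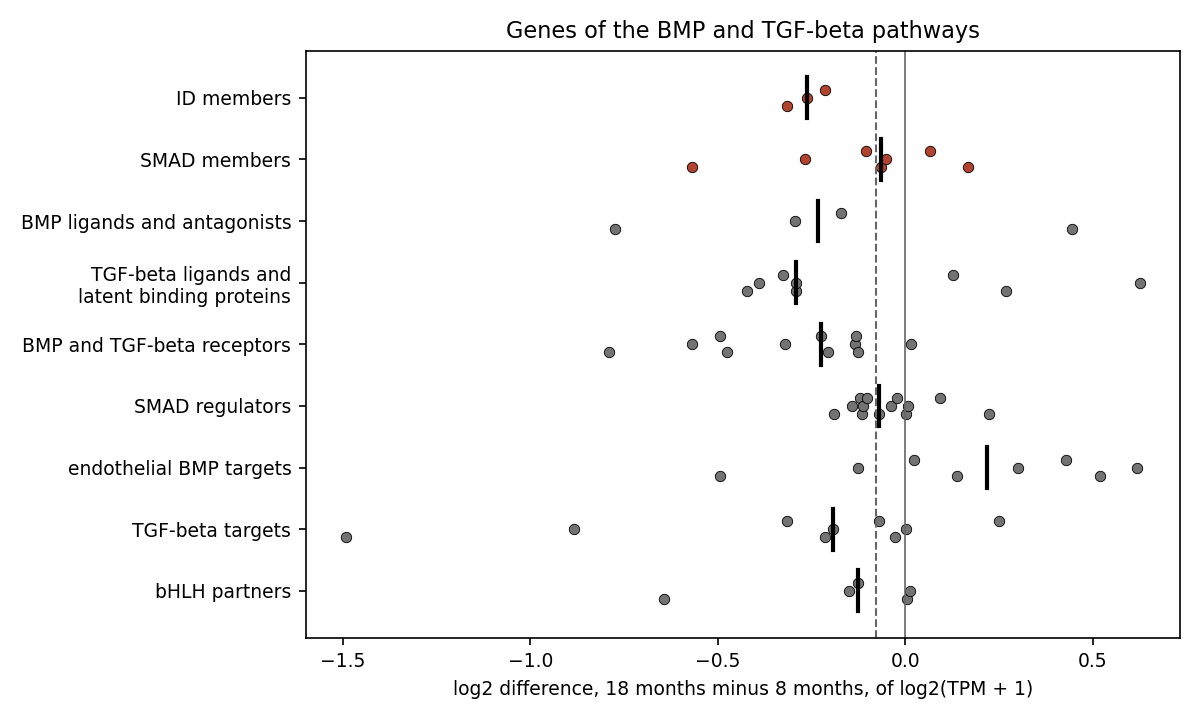
Each point is the log2 difference, 18 minus 8 months, of log2(TPM + 1) of a tested gene, by list, with the list's median as a black bar and the median of all tested genes, -0.079, as a dashed line. The receptor list lies mostly below 0 with a median of -0.23, the endothelial BMP targets mostly above it with a median of 0.22, and SMAD regulators lie between -0.19 and 0.22.

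Markers of the sorted cells and of other lung cells differed beside some of these values, and their part in the results was not tested. The 8 endothelial markers were all present, with Pecam1 at 1354 ± 76.4 TPM in Aged cells and 1351 ± 62.4 TPM in mAdu cells (SD, n = 3 each). Their summed level ran from 5666 to 6416 TPM in Aged cells and from 6763 to 7023 TPM in mAdu cells, and 7 of the 8 were lower in sign, all but Pecam1. There were 3 of the 8 lower without overlap, beside 14.2% of all tested genes. Kdr, the main VEGF receptor gene, averaged 372.8 ± 36.8 TPM in Aged cells and 540.1 ± 44.5 TPM in mAdu cells (SD, n = 3 each, limma adjusted p = 0.14). Cdh5, the gene of VE-cadherin, averaged 734.7 ± 79.8 TPM in Aged cells and 891.7 ± 29.8 TPM in mAdu cells, and the tight junction gene Cldn5 1803 ± 128.0 TPM in Aged cells and 2170 ± 144.2 TPM in mAdu cells (SD, n = 3 each). In bulk RNA, fewer cells of a type and less RNA per cell cannot be told apart. With each library scaled to these markers, the ages overlapped in Id1, at 630.9, 646.5 and 558.0 scaled TPM in Aged cells and at 728.5, 661.9 and 606.6 scaled TPM in mAdu cells, and also in Smad6, and the ages did not overlap in Smad1 and Smad2, both higher in Aged cells. That scaling, added after the data were seen, moved the median of all genes by 0.18 on the log2 scale. At an unadjusted limma p under 0.05, 1439 tested genes were higher and 463 lower with that scaling, against 440 and 1274 without it. The share of all genes without overlap was not determined under that scaling. Relative to the median of all genes, Id1 lay at -0.22 with it and at -0.24 without it, Smad6 at -0.17 with it and -0.19 without it, and Smad1 at 0.26 with it and 0.25 without it.

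Epithelial markers such as Sftpc and Scgb1a1 summed to between 9465 and 19291 TPM in Aged cells and between 10961 and 20119 TPM in mAdu cells. The highest sum was in the third mAdu library, the library with the lowest Id2 and Id3. Among the Aged libraries the order was the reverse. The first, with a sum of 19291 TPM, had the highest Id2 and Id3 of that age. The third, with 9465 TPM, had the lowest. Macrophage and monocyte markers, which contain 8 tested genes that were all higher in sign, summed to between 896.2 and 1678 TPM in Aged cells and between 612.1 and 1732 TPM in mAdu cells, again with the third mAdu library highest. Of these, Lyz2 ran from 614.3 to 1287 TPM in Aged cells and from 568.0 to 1542 TPM in mAdu cells, Cd68 from 20.9 to 35.6 TPM in Aged cells and from 11.0 to 29.0 TPM in mAdu cells, and Adgre1 from 2.91 to 5.31 TPM in Aged cells and from 1.09 to 4.28 TPM in mAdu cells. Of the 8, Chil3 was the 1 gene higher without overlap, beside 4.48% of all tested genes. It lay at 140.5, 390.6 and 248.7 TPM in Aged cells, against 26.7, 31.4 and 140.1 TPM in mAdu cells. Its log2 difference was 2.26 (limma adjusted p = 0.19). The defining gene Csf1r lay at 0.745, 0.00242 and 0 TPM in Aged cells and at 0, 0 and 6.41e-06 TPM in mAdu cells. Lymphocyte markers summed to between 18.4 and 24.4 TPM in Aged cells and between 20.9 and 60.0 TPM in mAdu cells. Fibroblast markers lay between 8.09 and 11.9 TPM in Aged cells and between 16.0 and 33.1 TPM in mAdu cells, and smooth muscle and pericyte markers between 13.2 and 16.5 TPM in Aged cells and between 20.1 and 26.8 TPM in mAdu cells. Immediate early genes, which respond within minutes to cell handling as well as to signals, summed to 1527, 568.5 and 1023 TPM in Aged cells and to 1059, 1701 and 1323 TPM in mAdu cells. The second Aged library, lowest in Smad5, was the lowest in these genes too, and the second mAdu library, highest in Id2, Id3 and Smad3, the highest. Fos averaged 274.8 ± 116.7 TPM in Aged cells and 239.3 ± 56.9 TPM in mAdu cells, Jun 195.3 ± 84.9 TPM in Aged cells and 400.1 ± 124.3 TPM in mAdu cells, and Nr4a1 141.3 ± 75.8 TPM in Aged cells and 225.3 ± 57.2 TPM in mAdu cells (SD, n = 3 each).

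The genes whose levels over the 6 libraries were most like those of 3 members were picked from the tested genes averaging 5 TPM or more, by the root mean square difference of log2(TPM + 1) values centred on each gene's own mean. Nearest to Id1 were Tsfm with a difference of 0.027, Rbm48 with 0.034 and Commd7 with 0.036, where Id1 itself spread by 0.18. For Smad3, the lowest member in log2 difference, they were Vps51 with 0.035, Hlx with 0.037 and Sppl2b with 0.062, where Smad3 spread by 0.36. For Smad1, the highest, they were Nhej1 with 0.018, Mir22hg with 0.033 and Acox3 with 0.040, where Smad1 spread by 0.11. Each set is the closest of 9512 genes for Id1 and Smad1 and of 9513 for Smad3, by a measure of 6 values, and none of them belongs to a list used here.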

How the data were processed

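RNA was sequenced from endothelial cells sorted from mouse lung, 3 libraries at each age. Per the labels' protocols, libraries were made from 10 ng of total RNA with the SMARTer Ultra Low kit and read in pairs of 100 bp. The authors deposited TPM per Ensembl gene, and per the submitters' processing notes kallisto and the build mm10 were used. The sources used here give neither kallisto's version nor its transcript set, nor how gene values were formed or whether strand was used. Read depth cannot be had from TPM, so no counting error is stated. The values summed to 869315 to 876126 TPM per library.

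Symbols and positions came from GENCODE M21 on GRCm38, where 24299 of the 24520 identifiers were found, and promoter sequences from RefSeq on GRCm38.p6. Log2(TPM + 1) values were fitted with limma 3.58.1 in R 4.3.3, with an intensity trend and age as the sole term, over the 12748 genes whose mean reached 1 TPM. Tests were 2-sided with Benjamini-Hochberg adjustment at 0.05, and were tested on simulated data. There, 5 of 50 genes shifted by 0.5 on the log2 scale were called, and 43 of 50 shifted by 1. All 50 were called at a shift of 2 and all 50 at 3. There were 7 false calls among the other genes, and 0 where no gene was shifted. Log2 differences understate the change of low genes. Single values per library were compared by exact permutation, and with the replicate block by flipping the signs of differences between libraries of the same number.

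The members and lists were chosen with earlier results of these data known. All members were named, with Smad9, Id4, the 3 tested genes of highest mean level per pathway list and immediate early list, and the nearest genes of 3 members. Gdf2, Bmp10, Pecam1, Kdr, Cdh5, Cldn5, Sftpc, Scgb1a1, Lyz2, Cd68, Adgre1, Chil3 and Csf1r were named outside this rule, after their values were seen, as were Hey1, Hey2 and Hes1, with no values. Alternatives were pseudocounts of 0.1 and 0.5, no filter, a mean of at least 5 TPM, other scalings, a correction for GC content and length (loess, span 0.75), no trend, library weights, a replicate block, protein-coding genes alone and each library left out. Scaling to the endothelial markers and leaving out 2 libraries together were added after the data were seen.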

Additional observations from a re-analysis of the deposited data

How the results depend on the processing

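None of the 10 members passed an adjusted p of 0.05 in any of the 21 alternative settings, and their smallest adjusted p was 0.097, for Id1 with library weights. Id1, Id2, Smad3 and Smad6 were lower and Smad1 higher in each setting in which they were fitted. Smad3 has no value with a mean of at least 5 TPM, since it lies under that level.

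The other members turned sign in some settings. Smad4 and Smad7 were higher after median-of-ratios scaling (0.030 and 0.045), after quantile normalization (0.035 and 0.038), after correcting for GC and length with or without the replicate block (0.0024 and 0.098) and scaling to the endothelial markers (0.12 and 0.14). Smad5 was higher with library weights (0.055), with scaling to the endothelial markers (0.081) and without the second Aged library, alone (0.14) or together with the third mAdu library (0.12). Leaving out a single library also turned Smad2 (-0.069 without the first Aged library), Smad7 (0.0019 without the first and 0.014 without the second mAdu library) and Id3 (0.015 without the second mAdu library). With each library left out in turn Smad2 ran from -0.069 to 0.17, Smad7 from -0.17 to 0.014, Smad5 up to 0.14 and Id3 from -0.46 to 0.015. Relative to the median of all genes, Id1 lay between -0.32 and -0.18 and Smad6 between -0.24 and -0.068 over all settings.

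The number of genes past the threshold among all tested genes was 3, against 16 under median-of-ratios scaling and 16 under quantile normalization, 94 when libraries were weighted, 28 when only protein-coding genes were fitted and 19 with scaling to the endothelial markers. It was 0 with no filter, 0 after correcting for GC and length with the replicate block, 0 with the replicate block and 0 without both the second Aged and the third mAdu library. Leaving out each library in turn gave 0 to 2. At an unadjusted p under 0.05 there were 1274 lower and 440 higher genes, against 881 and 756 under median-of-ratios scaling, 979 and 751 under quantile normalization, 770 and 772 after correcting for GC and length and 463 and 1439 with scaling to the endothelial markers. The cause was not tested. The BMP-branch share, the inhibitory ratio and the summed ID level kept the direction of their difference in each setting run for them. With a library left out the differences ran from 0.583 to 3.16 percentage points for the BMP-branch share, from -0.351 to -0.0511 for the ratio of inhibitory to receptor-regulated SMADs and from -1035 to -143.1 TPM for the summed ID level.

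The labels give both ages the numbers 1 to 3 but no shared mouse, litter or day. Across genes, the deviations of libraries with the same number had correlations of -0.012, -0.090 and 0.057. Those of libraries with different numbers ran from -0.069 to 0.083. With 3 libraries per age, these values cannot decide whether the numbers pair libraries. With the replicate block the smallest adjusted p of a member was 0.37, and the summed ID level, the BMP-branch share and the ratio of inhibitory to receptor-regulated SMADs each had an exact p of 0.50. With 3 libraries per age, precision was poorest for Id3, Smad3 and Smad5, whose 95% intervals were the widest of the 10 members.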
